A study of Homo sapiens with 12 samples.

Results

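Sorafenib (Srf) is a kinase inhibitor used against liver cancer, and among the kinases it blocks are the RAF kinases and the receptors for PDGF and FGF. The RNA levels of 9 genes of these pathways were followed, namely the RAF kinases BRAF and ARAF, the receptors FGFR1, FGFR4 and PDGFRB, and the growth factors FGF1, FGF2, PDGFA and PDGFC. They were chosen by name, as Sorafenib targets and growth factors of the FGF and PDGF families, with earlier results of these data known. They were found by Entrez identifier among the 26258 genes listed. RNA was sequenced from HLE, an established line of human hepatocellular carcinoma. The cells had received 1 of 3 transfections: control siRNA (siCtrl), siRNAs that deplete YAP together with TAZ (siY/T), or siRNA that depletes ATF4 (siATF4). YAP and TAZ are transcriptional co-activators of the Hippo pathway, and ATF4 is a transcription factor of the amino acid and stress response. Every transfection was treated with either Sorafenib, at 5 µM in the sample labels, or its vehicle DMSO, and each of the 6 groups had 2 libraries, 12 in all. The study's text names another dose for HLE cells and triplicate samples, so the dose is taken from the labels alone. All groups came from 1 cell line, YAP and TAZ were always depleted together, and the labels do not say whether the 2 libraries of a group came from separate cultures, so that p-values measure the spread between these libraries.

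Growth factors of the FGF and PDGF families bind receptor tyrosine kinases at the cell surface. The activated receptors recruit adaptor proteins that switch on RAS, RAS recruits RAF kinases to the membrane, and RAF phosphorylates MEK, which in turn phosphorylates ERK. ERK raises the transcription of a set of feedback inhibitors, among them the Sprouty proteins and the dual-specificity phosphatases, which damp the same cascade. In the adult liver FGFR4 is the main FGF receptor of hepatocytes and represses bile acid synthesis together with its co-receptor beta-Klotho, while PDGFRB is best known from stellate cells and pericytes. RNA levels do not measure kinase activity, and nothing below speaks of the activity of the proteins.

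The libraries held 41408348 to 53619732 reads on genes. The siRNA targets fell in their own groups, where means in DMSO were 52.1 CPM (reads per 1000000 reads on genes) against 278 in siCtrl for YAP1, 61.0 against 171 for WWTR1, which encodes TAZ, and 98.5 against 248 CPM for ATF4. Replicate libraries were less alike than counting noise alone would leave them, most so in siY/T DMSO cells, where the chi-square per gene was 20.7 against 2.98 to 8.30 in the other groups. Most hepatocyte markers were near 0, with 8 of 10 under 0.5 CPM in every library, ALB and HNF4A among them, as were AFP and GPC3, the 2 fetal liver markers. FGB, which encodes a fibrinogen chain, was present at 64.4 to 431 CPM, VIM at 1952 to 2916 CPM and KRT8 at 655 to 2558 CPM. Of the stellate cell and pericyte markers, DES stayed under 0.5 CPM, and the 5 markers added up to 9.85 to 12.1 CPM in siCtrl DMSO, 24.7 to 34.3 in siY/T DMSO, 4.91 to 5.23 in siATF4 DMSO, 19.4 to 21.1 in siCtrl Srf, 43.4 to 49.4 in siY/T Srf and 6.53 to 7.07 CPM in siATF4 Srf cells, mostly from RGS5. This order followed that of FGFR4 across the groups, but not that of PDGFRB. Mean levels of PDGFRB with siY/T and siCtrl were 41.6 and 43.9 CPM in DMSO and 70.2 and 79.2 CPM in Srf. The part of these markers in the results was not tested. The 3 endothelial markers were under 0.5 CPM throughout, as were PTPRC and CD3E of the 3 leukocyte markers. The third, CD68, a lysosomal protein gene, rose with siATF4, with means of 73.5 against 20.4 CPM in DMSO (log2 fold change 1.82) and 61.7 against 23.0 CPM in Srf (1.40). The epithelial markers did not move together. KRT8 fell with siY/T in DMSO to a mean of 669 from 2245 CPM and KRT18 to 330 from 1032 CPM. CDH1 rose there, to 2.14 from 0.80 CPM (log2 fold change 1.02). It also rose with Srf in siCtrl cells (2.37), and with siATF4 in Srf it fell to 0.26 from 6.19 CPM. In that last comparison KRT8 fell by 0.61, while KRT18 was 0.54 higher and not called. The part of these changes in the results was not tested. In bulk RNA, fewer cells with a transcript and less transcript per cell cannot be told apart.

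All 9 genes were above the filter of 1 CPM in all 12 libraries, so none was too low to be tested. The lowest was PDGFA, with 2.59 to 5.33 CPM and 125 to 276 reads, and the single lowest value was that of FGF1 in a siY/T Srf library, with 45 reads. Set against exon length, FGFR1 was the most abundant, at 70.1 to 101 CPM per kilobase of exon, followed by PDGFC at 23.8 to 75.9 and ARAF at 26.3 to 35.0. PDGFC was above ARAF in the siCtrl and siY/T groups and below it in the siATF4 groups, with means of 24.4 against 34.1 in DMSO and 25.3 against 34.4 in Srf. FGF2 lay between 8.70 and 21.6, FGFR4 between 1.91 and 24.1 and PDGFRB between 1.25 and 13.8 on the same scale. PDGFA, with 0.80 to 1.64, and BRAF, with 0.74 to 1.12, were the lowest apart from FGF1 after siY/T. The value of BRAF depends on the gene model, because its annotated exons add up to 14406 bases and its canonical transcript to 6459, and on the latter its group means were 1.65 to 2.43 CPM per kilobase. On canonical lengths the ranking changed in siATF4 DMSO cells, where BRAF was above PDGFRB, with means of 1.65 against 1.32. The genes differed widely in how much they varied. The highest group mean was 25.5 times the lowest for FGF1, 12.1 times for FGFR4 and 10.6 times for PDGFRB, against 3.0 for PDGFC, 2.31 for FGF2, 1.82 for PDGFA, 1.47 for BRAF, 1.41 for FGFR1 and 1.29 for ARAF.

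**Figure D1:**
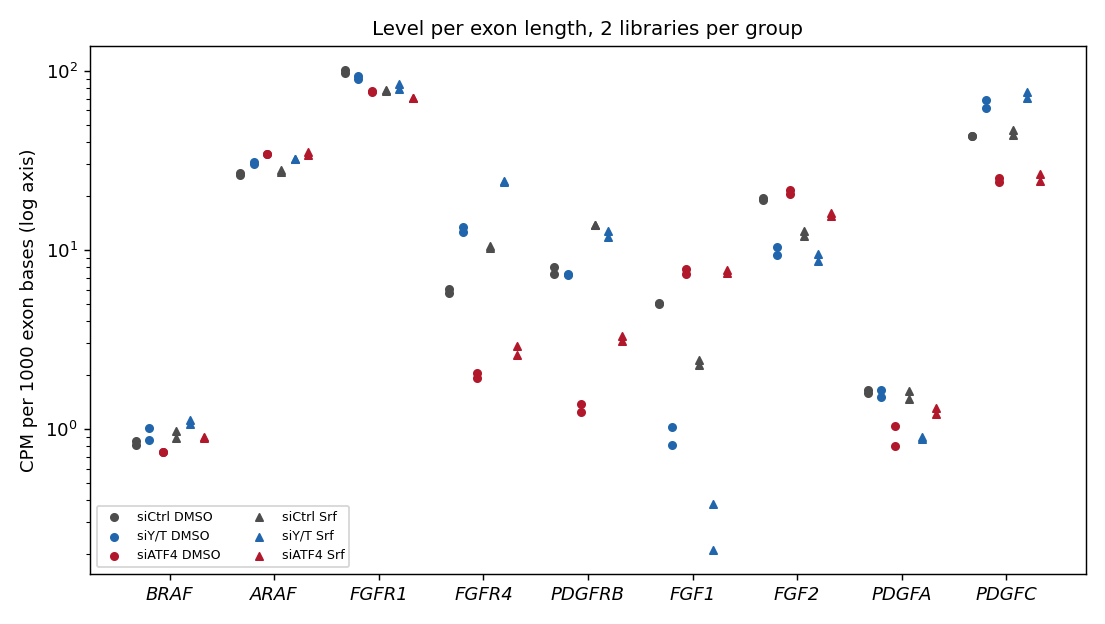
Level of each gene in CPM per kilobase of exon (log axis) in the 12 libraries, with DMSO groups as circles and Srf groups as triangles. FGFR1, PDGFC and ARAF were high in every group, whereas FGFR4, PDGFRB and FGF1 spread over an order of magnitude between groups.

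Changes were tested with limma on log2(CPM + 0.5), on which scale all fold changes are given. A gene was called changed when its two-sided P before adjustment was below 0.05 and its log2 fold change was 0.58 or more in size. These limits follow the methods of the study. Adjusted p-values are those of Benjamini and Hochberg over all genes tested. Of the 9 genes, 2 were lowered and 2 raised by siY/T in DMSO, where 3.61% and 11% of the 13515 genes tested were lowered and raised. With siY/T in Srf, 2 were again lowered and 2 raised, against 3.84% and 6.11% of all genes. siATF4 lowered 4 and raised 1 in DMSO, against 14.1% and 8.57% of all genes, and lowered 3 and raised 1 in Srf, against 18.7% and 10.3%. Srf lowered 2 and raised 2 in siCtrl cells, against 5.15% and 12.3%, lowered 2 and raised 2 in siY/T cells, against 4.14% and 5.83%, and lowered 0 and raised 1 in siATF4 cells, against 2.95% and 5.68%. In every comparison with an siRNA, calls went in both directions, and the median of the 9 genes stayed near that of all genes, except with siATF4 in DMSO, with a median of -0.37 against -0.0013, and with siATF4 in Srf, with -0.14 against -0.0082.

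**Figure D2:**
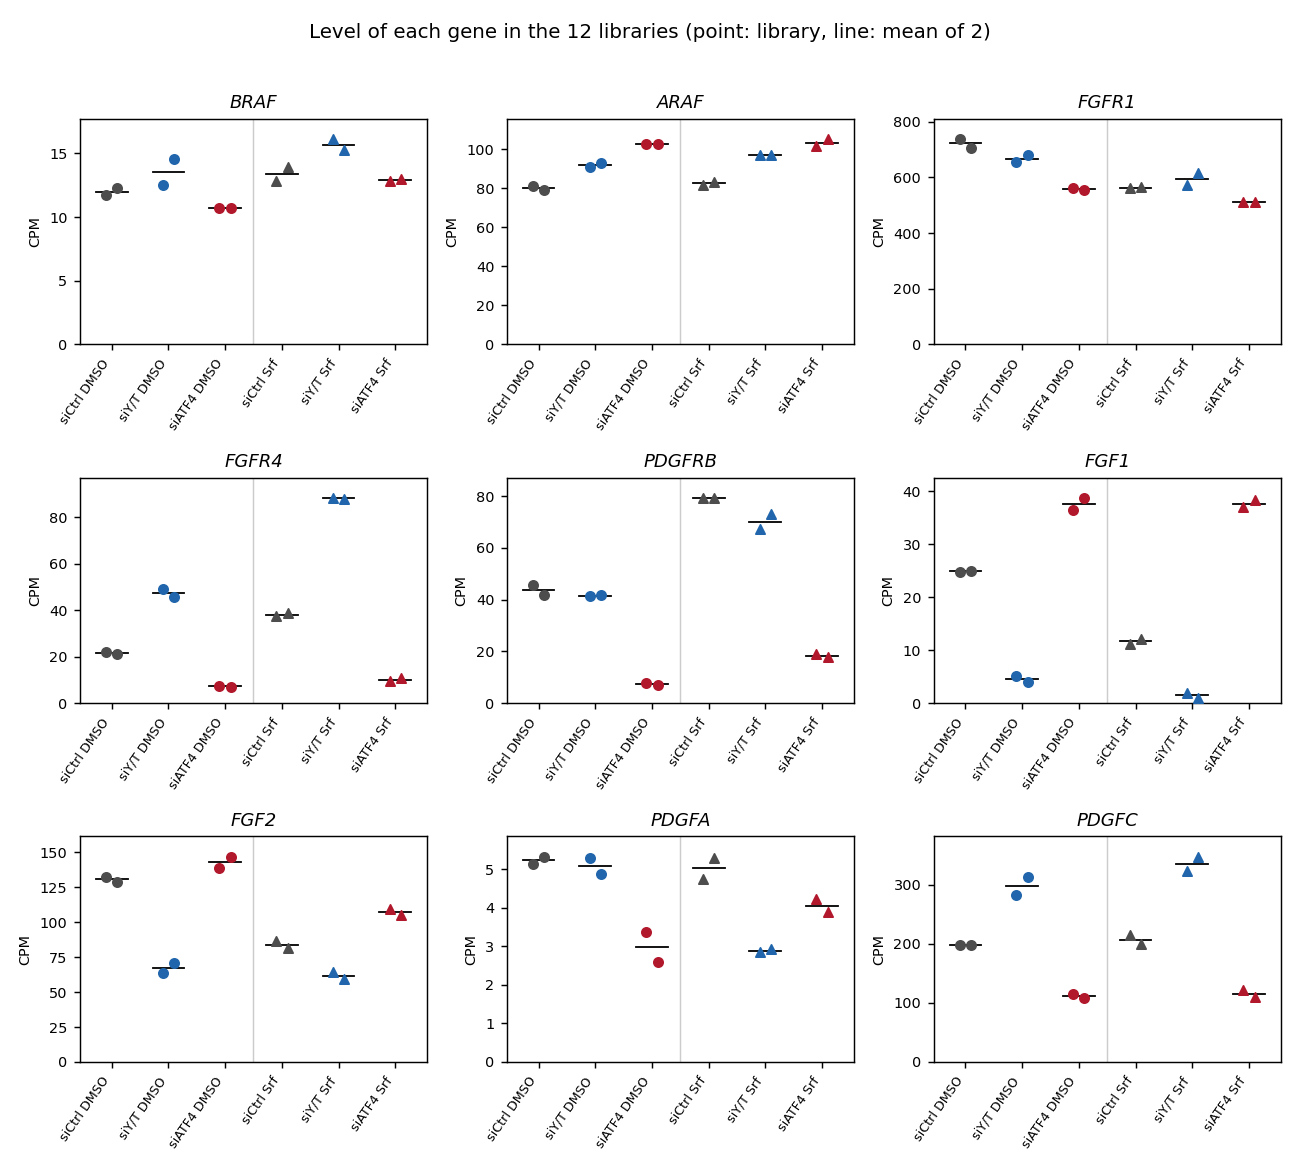
Level in CPM of each gene in each library (points), with the mean of the 2 libraries of a group as a line, DMSO groups as circles and Srf groups as triangles, each axis starting at 0. FGFR4, PDGFRB and PDGFC were lowest after siATF4, and FGF1 was lowest after siY/T and highest after siATF4.

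The RAF kinases changed little. BRAF (Entrez 673, minus strand, chr7:140419127-140624729 of GRCh37) encodes the RAF isoform with the highest basal activity towards MEK. Its level was 11.7 and 12.3 CPM in siCtrl DMSO, 12.5 and 14.5 in siY/T DMSO, 10.7 and 10.7 in siATF4 DMSO, 12.8 and 14.0 in siCtrl Srf, 16.1 and 15.2 in siY/T Srf and 12.8 and 13.0 CPM in siATF4 Srf libraries. The siY/T Srf libraries were the highest and the siATF4 DMSO libraries the lowest, and the siCtrl Srf, siATF4 Srf and siY/T DMSO libraries overlapped. BRAF was called in 0 of the 7 comparisons, with log2 fold changes from -0.16 to 0.26, although 3 of them, each a rise of at most 0.26, had a limma p below 0.05 after Benjamini-Hochberg adjustment. So did 48.9% to 73.2% of all genes, depending on the comparison. A stretch of 1239 exon bases of BRAF is shared with NDUFB2 on the opposite strand, a gene at 45.4 to 59.5 CPM, and the strand setting of the counting is not given in the sources used here, so reads of the 2 genes may not be separated.

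ARAF (Entrez 369, plus strand, chrX:47420604-47431307), the RAF isoform with the weakest kinase activity, was the steadiest of the 9. Libraries had 81.1 and 78.9 CPM in siCtrl DMSO, 90.8 and 92.9 in siY/T DMSO, 102 and 103 in siATF4 DMSO, 81.5 and 83.4 in siCtrl Srf, 96.9 and 97.1 in siY/T Srf and 101 and 105 CPM in siATF4 Srf libraries. Both siRNAs gave higher values than siCtrl without overlap, in DMSO and in Srf, whereas Srf left ARAF within 0.079 on the log2 scale in each transfection. With siATF4 ARAF was 0.36 higher in DMSO (SE 0.041, limma, Benjamini-Hochberg adjusted p = 4.78e-06) and 0.32 higher in Srf on the log2 scale, and with siY/T it was 0.20 and 0.23, all 4 short of the fold threshold.

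**Figure D3:**
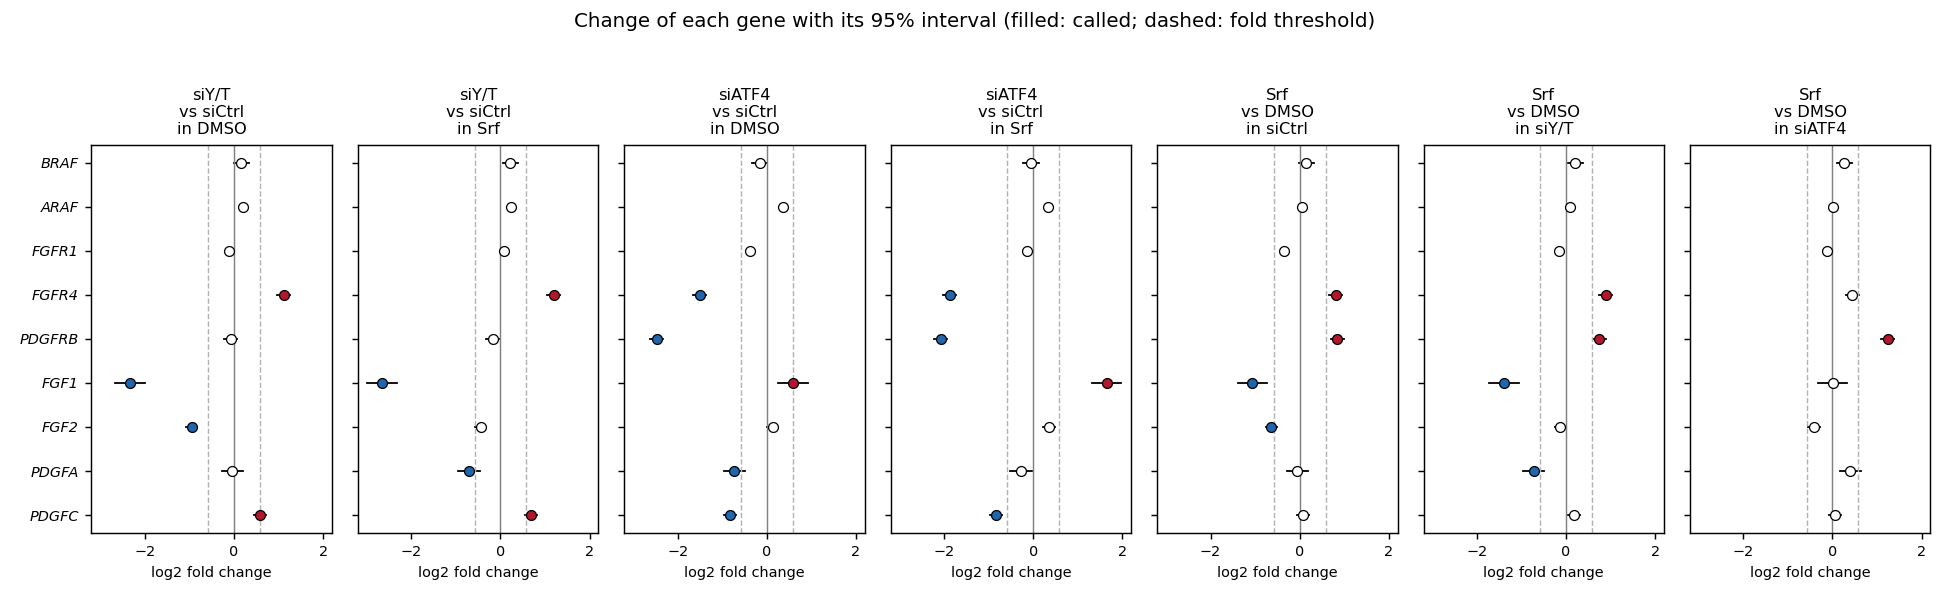
Log2 fold change of each gene (points) with its 95% interval from the limma fit (lines) in the 7 comparisons, filled where called and with the fold threshold dashed. BRAF, ARAF and FGFR1 stayed inside the threshold in every comparison, while FGF1 moved in opposite directions with siY/T and siATF4, as did FGFR4 and PDGFC.

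The receptors separated into FGFR1, which stayed high, and FGFR4 and PDGFRB, which fell steeply with siATF4. FGFR1 (Entrez 2260), on chromosome 8, encodes the FGF receptor typical of mesenchymal cells. Its level was 737 and 707 CPM in siCtrl DMSO, 654 and 680 in siY/T DMSO, 561 and 555 in siATF4 DMSO, 561 and 566 in siCtrl Srf, 574 and 615 in siY/T Srf and 511 and 512 CPM in siATF4 Srf libraries. The siCtrl DMSO libraries were above all the others. FGFR1 was not called in any of the 7 comparisons. In 6 of the 7 it passed an adjusted P of 0.05, as did 48.9% to 73.2% of all genes, depending on the comparison. The lower values with siATF4 in DMSO (log2 fold change -0.37, limma, Benjamini-Hochberg adjusted p = 4.57e-06) and with Srf in siCtrl cells (-0.36, SE 0.042) had intervals that left out 0, from -0.46 to -0.28 and from -0.45 to -0.27.

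FGFR4 (Entrez 2264, plus strand, chr5:176513906-176525145) is the receptor for the bile acid hormone FGF19. The libraries showed 22.0 and 21.1 CPM in siCtrl DMSO, 49.0 and 45.9 in siY/T DMSO, 7.52 and 7.01 in siATF4 DMSO, 37.5 and 38.7 in siCtrl Srf, 88.4 and 88.0 in siY/T Srf and 9.44 and 10.7 CPM in siATF4 Srf libraries. No libraries of neighbouring groups overlapped, in the order siATF4 DMSO, siATF4 Srf, siCtrl DMSO, siCtrl Srf, siY/T DMSO and siY/T Srf. FGFR4 rose with siY/T, with log2 fold changes of 1.12 in DMSO and 1.20 in Srf (SE 0.067, limma, Benjamini-Hochberg adjusted p = 2.89e-08 and 2.73e-08). With siATF4 the log2 fold change was -1.51 in DMSO and -1.87 in Srf (limma, Benjamini-Hochberg adjusted p = 6.82e-10 and 7.84e-11). Srf raised it by 0.81 in siCtrl and 0.89 in siY/T cells, and the value in siATF4 cells, 0.44, was below the fold threshold. FGFR4 was thus called in 6 of the 7 comparisons, and each of these calls held when any library was left out. The partners of FGFR4 in liver were absent, since KLB, which encodes beta-Klotho, was at 0.07 CPM or less in every library and FGF19 and FGF21 were at 0 reads, which allows up to 3 reads per library.

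PDGFRB (Entrez 5159, minus strand, chr5:149493402-149535435) encodes the receptor for PDGF-B and PDGF-D dimers. Its libraries gave 45.8 and 41.9 CPM in siCtrl DMSO, 41.3 and 41.9 in siY/T DMSO, 7.86 and 7.15 in siATF4 DMSO, 79.3 and 79.2 in siCtrl Srf, 67.5 and 72.9 in siY/T Srf and 19.0 and 17.7 CPM in siATF4 Srf libraries. The siATF4 libraries were far below all the others under either treatment, and the siY/T libraries lay just under the siCtrl libraries. PDGFRB fell with siATF4 by 2.47 on the log2 scale in DMSO and by 2.08 in Srf (SE 0.066, limma, Benjamini-Hochberg adjusted p = 9.65e-12 and 3.59e-11), the largest falls of the 9 genes with that siRNA. It rose with Srf in every transfection, by 0.85 in siCtrl, 0.75 in siY/T and 1.24 in siATF4 cells, where it was the 1 gene of the 9 that was called. With siY/T it was not called, with -0.076 in DMSO (95% interval -0.22 to 0.066) and -0.17 in Srf (-0.32 to -0.03). All 5 calls of PDGFRB held when any library was left out.

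The promoter windows of FGFR4 and PDGFRB are shown because these receptors had the largest falls with siATF4. They are the 250 bases before the start of each gene from RefSeq (GRCh38.p14), with chr5:177086665-177086914 on the plus strand for the first of 2 FGFR4 starts and chr5:150155846-150156095 on the minus strand for PDGFRB, written 5′ to 3′ in lower case because none of the motifs searched was found in them.
FGFR4: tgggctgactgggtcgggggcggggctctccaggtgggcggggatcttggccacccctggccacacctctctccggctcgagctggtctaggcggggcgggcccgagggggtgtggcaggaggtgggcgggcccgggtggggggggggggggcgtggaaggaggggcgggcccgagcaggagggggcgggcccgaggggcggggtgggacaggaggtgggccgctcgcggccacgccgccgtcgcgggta
PDGFRB: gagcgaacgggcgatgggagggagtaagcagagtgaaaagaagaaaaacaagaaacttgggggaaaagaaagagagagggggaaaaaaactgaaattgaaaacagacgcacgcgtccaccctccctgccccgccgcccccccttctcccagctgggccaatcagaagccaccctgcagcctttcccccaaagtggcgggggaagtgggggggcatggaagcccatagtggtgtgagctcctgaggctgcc
The motifs searched on both strands were the ATF4 element TGATGNAA, which 3.14% of the 35116 promoter windows hold, the TEAD site GGAATG (11.9%), which is bound by the partners of YAP and TAZ, and the AP-1 site TGANTCA (6.57%). The FGFR4 window was the richer in G and C, with 79.6% against 58.4% for PDGFRB. Of the 9 genes, 7 had windows searched, and the ATF4 element was in 0 of these windows, which says only that these letters are not in them.

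Of the FGF ligands, FGF1 moved in the opposite direction to FGFR4 in all 6 comparisons in which both were called, whereas FGF2 was called in 2. FGF1 (Entrez 2246, minus strand, chr5:141971743-142077635) encodes acidic FGF, which can bind all FGF receptors. FGF1 stood at 24.9 and 25.0 CPM in siCtrl DMSO, 5.11 and 4.06 in siY/T DMSO, 36.6 and 38.7 in siATF4 DMSO, 11.3 and 12.1 in siCtrl Srf, 1.90 and 1.05 in siY/T Srf and 37.0 and 38.4 CPM in siATF4 Srf libraries. Only the 2 siATF4 groups overlapped, and they were the highest. FGF1 fell with siY/T by 2.33 on the log2 scale in DMSO and by 2.66 in Srf (SE 0.15, limma, Benjamini-Hochberg adjusted p = 6.28e-08 and 3.47e-08), the largest changes of the 9 genes with that siRNA. In Srf 1 siY/T library had 89 and the other 45 reads, and with any 1 library left out the log2 fold change lay between -2.97 and -2.34. Srf lowered FGF1 by 1.06 in siCtrl and by 1.39 in siY/T cells, and in siATF4 cells the difference was 0.0022 (95% interval -0.33 to 0.33). siATF4 raised FGF1 by 1.65 in Srf (limma, Benjamini-Hochberg adjusted p = 4.84e-07). In DMSO the rise with siATF4 was 0.584, barely past the threshold, and the call was lost without siCtrl DMSO replicate 1, with 0.579, and without siATF4 DMSO replicate 2, with 0.54.

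FGF1 has 4 starts in RefSeq, and the window of the last of them is shown because it alone among the searched windows of these growth factors and receptors held TEAD letters. It is chr5:142644240-142644489 on the minus strand of GRCh38.p14, 250 bases before the start, with the matches in capitals.
FGF1: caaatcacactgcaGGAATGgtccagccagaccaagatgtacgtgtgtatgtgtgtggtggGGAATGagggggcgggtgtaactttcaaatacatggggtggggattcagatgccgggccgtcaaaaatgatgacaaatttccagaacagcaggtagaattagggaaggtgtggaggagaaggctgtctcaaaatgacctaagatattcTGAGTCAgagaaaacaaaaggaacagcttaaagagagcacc
The TEAD letters GGAATG stand 236 and 189 bases before the start and an AP-1 match 41 bases before it. ARAF, which rose by 0.20 with siY/T in DMSO and was not called, held 1 TEAD match 122 bases before its start, on the other strand. A match is a description of the sequence, and which FGF1 start was used in HLE cells was not measured.

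FGF2 (Entrez 2247, plus strand, chr4:123747837-123819391) encodes basic FGF. Libraries held 132 and 129 CPM in siCtrl DMSO, 64.0 and 70.9 in siY/T DMSO, 139 and 147 in siATF4 DMSO, 86.4 and 81.3 in siCtrl Srf, 64.2 and 59.1 in siY/T Srf and 109 and 105 CPM in siATF4 Srf libraries. The siY/T groups were the lowest and overlapped each other, and the siATF4 libraries were above the siCtrl libraries under both treatments. FGF2 fell with siY/T in DMSO by 0.95 on the log2 scale (SE 0.059, limma, Benjamini-Hochberg adjusted p = 4.11e-08) and with Srf in siCtrl cells by 0.64. The value with siY/T in Srf was -0.44, and that with Srf in siATF4 cells was -0.41. With siATF4 the value was 0.13 in DMSO and 0.35 in Srf. These were not called, but all except the 0.13 had an adjusted p below 0.05 from limma and missed only the fold threshold. A stretch of 704 exon bases of FGF2 lies opposite NUDT6, which had only 2.42 to 3.85 CPM.

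The PDGF ligands differed from each other. PDGFC (Entrez 56034, minus strand, chr4:157681606-157892951) encodes a PDGF that is secreted in latent form and acts mainly through PDGF receptor alpha. PDGFC reached 197 and 198 CPM in siCtrl DMSO, 283 and 314 in siY/T DMSO, 115 and 109 in siATF4 DMSO, 215 and 199 in siCtrl Srf, 323 and 347 in siY/T Srf and 121 and 110 CPM in siATF4 Srf libraries. The 3 transfections did not overlap in either treatment, with siATF4 lowest and siY/T highest, and Srf shifted PDGFC by at most 0.17 on the log2 scale in each. PDGFC fell with siATF4 by 0.82 in DMSO and by 0.84 in Srf (SE 0.062, limma, Benjamini-Hochberg adjusted p = 9.14e-08 and 5.24e-08), and it rose with siY/T by 0.69 in Srf. The rise with siY/T in DMSO was 0.59, and it was not called without siY/T DMSO replicate 2, with 0.52, or after TMM scaling, with 0.53.

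PDGFA (Entrez 5154, minus strand, chr7:536895-559933), which also encodes a ligand of PDGF receptor alpha, was measured at 5.15 and 5.33 CPM in siCtrl DMSO, 5.31 and 4.88 in siY/T DMSO, 3.36 and 2.59 in siATF4 DMSO, 4.76 and 5.29 in siCtrl Srf, 2.85 and 2.92 in siY/T Srf and 4.23 and 3.90 CPM in siATF4 Srf libraries. The siATF4 DMSO and siY/T Srf libraries were the lowest and overlapped. PDGFA fell with siY/T in Srf by 0.71 (SE 0.11, limma, Benjamini-Hochberg adjusted p = 1.70e-04) and with Srf in siY/T cells by 0.72, both of which rest on the same 2 siY/T Srf libraries. It fell with siATF4 in DMSO by 0.73, a call that was lost without siATF4 DMSO replicate 2, with -0.57. With Srf in siATF4 cells PDGFA was 0.40 higher, with no overlap of the libraries, and was not called. The receptor for both ligands, PDGFRA, was low, at 0.02 to 1.96 CPM. It rose with siY/T, to a mean of 1.28 against 0.35 CPM in DMSO and of 1.42 against 0.52 CPM in Srf (log2 fold changes 1.08 and 0.86), and it fell with siATF4 in Srf by 0.80.

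The effects of the siRNAs were also compared between Srf and DMSO, and a difference between effects was called at an adjusted P under 0.05 by limma. For siY/T, 3 of the 9 genes differed, against 22% of all genes, and for siATF4, 6 of 9, against 41.1%. FGF1 had the largest such difference with siATF4, a rise of 0.58 in DMSO and of 1.65 in Srf, 1.06 apart (SE 0.22, limma, Benjamini-Hochberg adjusted p = 0.0018), and its level fell with Srf in siCtrl but not in siATF4 cells. The fall of PDGFRB with siATF4 was smaller in Srf by 0.39, and that of FGFR4 larger by 0.36 on the log2 scale. For siY/T, the fall of FGF2 was smaller in Srf by 0.51, and its level was lower in siCtrl Srf than in siCtrl DMSO cells while the siY/T groups overlapped, and PDGFA differed by -0.67. PDGFC, BRAF and ARAF had no call, with differences between -0.033 and 0.11 for the 2 siRNAs.

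For each gene with at least 1 call, the 2 genes most like it were sought by Pearson's r of log2 levels over the 12 libraries, among genes of at least 5 CPM on average. The 12 libraries form 6 groups, so r mostly describes the order of the group levels. FGFR4 was most like LDOC1 (r = 0.997) and CPS1 (0.995), the latter encoding the entry enzyme of the urea cycle. PDGFRB was most like EFNA1 (0.997), which encodes an ephrin ligand, and NFATC2 (0.995), and PDGFC was most like GRB14 (0.997), which encodes a receptor adaptor, and KIRREL1 (0.996). FGF1 was most like PEA15 (0.994), which encodes a protein that binds ERK in the cytoplasm, and TRIM47 (0.992), and FGF2 was most like the chemokine gene CXCL5 (0.987) and NEDD4 (0.986), which encodes a ubiquitin ligase. PDGFA was most like FAM219A (0.976) and DERA (0.906), and FGFR1 was most like SHQ1 (0.961) and SQLE (0.959), which encodes a sterol synthesis enzyme.

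Other genes of the same pathways were taken from written lists. Of the 11 tested genes on the list of the cascade, which holds RAS, scaffold, MEK and ERK genes, 0 were called with siY/T in either treatment or with Srf in any transfection, and 2 fell with siATF4 in each treatment, NRAS by 1.11 in DMSO and by 1.26 in Srf, and MAPK3, which encodes ERK1, by 1.04 and by 1.12. Of all genes, siY/T lowered and raised 3.61% and 11% in DMSO and 3.84% and 6.11% in Srf. Srf lowered and raised 5.15% and 12.3% of all genes in siCtrl, 4.14% and 5.83% in siY/T and 2.95% and 5.68% in siATF4 cells. With 11 genes, counts of 0 do not set the list apart. Falls in 2 of 11 genes are close to the share of all genes lowered by siATF4, 14.1% in DMSO and 18.7% in Srf. The effect of siY/T differed between Srf and DMSO for 2 of the 11 and that of siATF4 for 3, where 22% and 41.1% of all genes differed. HRAS, which was not called in any of the 7 comparisons, had a mean of 51.3 CPM with siY/T against 73.1 with siCtrl under DMSO, and of 36.2 against 52.7 CPM under Srf. Of the 11 receptor adaptors, between 0 and 2 were called per comparison, with 1 lower and 1 higher for siATF4 in each treatment, against 14.1% lower and 8.57% higher of all genes in DMSO and 18.7% and 10.3% in Srf. Among those called was PTPN11, the phosphatase SHP2, which fell by 0.65 with siY/T in DMSO and rose by 0.65 with siATF4, and SHC1, which fell by 0.82 with Srf in siCtrl cells. The PTPN11 fall was lost without siY/T DMSO replicate 1, with -0.55.

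Of the other 29 FGF ligands, receptors and cofactors only 9 passed the filter. FGF5, a ligand of FGFR1, had a mean of 98.8 CPM in siCtrl DMSO, 55.9 with siY/T, 154 with siATF4 and 47.5 CPM with Srf in siCtrl cells. It thus fell with siY/T in DMSO (-0.82), rose with siATF4 in DMSO (0.63) and fell with Srf in siCtrl cells (-1.05), the directions of FGF1. Unlike FGF1, FGF5 was not called with siY/T in Srf or with Srf in siY/T cells. The effect of siY/T on FGF5 was higher in Srf than in DMSO by 0.52. FGFR3 was low, at 1.61 to 11.1 CPM, and fell with siATF4 by 1.90 in DMSO and by 1.04 in Srf. FGFR4 also fell with siATF4, but the fall of FGFR3 was smaller in Srf by 0.85 and that of FGFR4 larger by 0.36. In siY/T cells Srf lowered FGFR3 by 0.59 and raised FGFR4 by 0.89. That FGFR3 call was lost without siY/T DMSO replicate 1 or siY/T Srf replicate 2. FGFR2 was at 0.07 CPM or less. Over the 9 genes tested, 2 were called lower and 1 higher with siATF4 in DMSO and 3 lower and 1 higher in Srf, where 14.1% and 8.57% of all genes were lower and higher in DMSO and 18.7% and 10.3% in Srf. With 9 genes, such counts do not set the list apart.

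Of the 19 PDGF and VEGF genes and their receptors, 12 were tested. With siATF4, 5 fell and 0 rose in DMSO, where 14.1% and 8.57% of all genes fell and rose. In Srf 6 fell and 0 rose, against 18.7% and 10.3%. The medians were -0.54 and -0.62 against -0.0013 and -0.0082 over all genes. PDGFB, which encodes the main ligand of PDGF receptor beta, had means of 15.5 against 48.6 CPM in DMSO (-1.62) and 22.5 against 72.3 CPM in Srf (-1.66). The co-receptor NRP2 fell by 1.52 with siATF4 in DMSO, a value that ranged from -2.01 to -1.23 over the alternatives. PDGFD, at 0.34 to 8.66 CPM, rose with siY/T by 1.48 in DMSO and by 1.68 in Srf. It fell with siATF4 by 1.46 in Srf, to a mean of 0.51 from 2.27 CPM, a value that ranged from -2.14 to -1.02 over the alternatives. FLT4, the VEGF receptor targeted by Sorafenib that was expressed here, rose with Srf in siCtrl cells from 13.5 to 32.2 CPM (1.23) and in Srf was lower with siY/T by 2.11. KIT, another Sorafenib target, fell with siY/T in DMSO from 12.8 to 4.62 CPM (by 1.37). The other receptors that Sorafenib blocks, KDR, FLT1, FLT3 and RET, were each under 1 CPM in every library.

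Of the 5 lists, that of the feedback genes downstream of ERK had the most calls in each of the 7 comparisons, and also the most genes tested. All 16 were tested, and Srf lowered 11 and raised 1 in siCtrl cells, where 5.15% and 12.3% of all genes were lowered and raised. It lowered 10 and raised 1 in siY/T cells, against 4.14% and 5.83%. In siATF4 cells it lowered 12 and raised 0, against 2.95% and 5.68%. The medians were -1.08, -0.93 and -0.97 against 0.052, 0.038 and 0.029 over all genes. SPRY4, an inhibitor of receptor signalling, fell from a mean of 4.27 to 0.60 CPM in siCtrl cells with Srf (by 2.12) and by 2.07 in siY/T cells, and the former log2 fold change ranged from -2.88 to -1.72 over the alternatives. EGR1, an immediate early gene, fell from 5.59 to 0.22 CPM in siCtrl cells, a handful of reads per library, so that its log2 fold change of -3.07 ranged from -4.69 to -2.43 over pseudocounts, scalings and count models. siATF4 raised 10 and lowered 1 of the 16 in DMSO, where it raised 8.57% and lowered 14.1% of all genes. In Srf it likewise raised 10 and lowered 1, against 10.3% and 18.7%. The medians were 1.22 and 1.09, against -0.0013 and -0.0082 over all genes. DUSP5, a nuclear ERK phosphatase, had means of 199 with siATF4 against 26.2 CPM in DMSO and 119 against 13.8 CPM in Srf, rises of 2.90 and 3.07 on the log2 scale, and SPRY4 rose by 2.48 and 3.12, the latter with a range of 2.66 to 3.93 over the alternatives. siY/T raised 6 and lowered 1 in DMSO, against 11% and 3.61% of all genes. It raised 8 and lowered 1 in Srf, against 6.11% and 3.84%. The medians were 0.50 and 0.54, against 0.069 and 0.052 over all genes. The largest changes were those of EGR1 (2.52) and SPRY1 (1.71) in DMSO and of SPRY1 (1.94) and SPRY4 (1.53) in Srf. SPRY1 did not exceed 3.76 CPM, and over the alternatives its values ranged from 1.33 to 2.42 in DMSO and from 1.54 to 2.67 in Srf, and that of SPRY4 in Srf from 1.20 to 2.14.

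**Figure D4:**
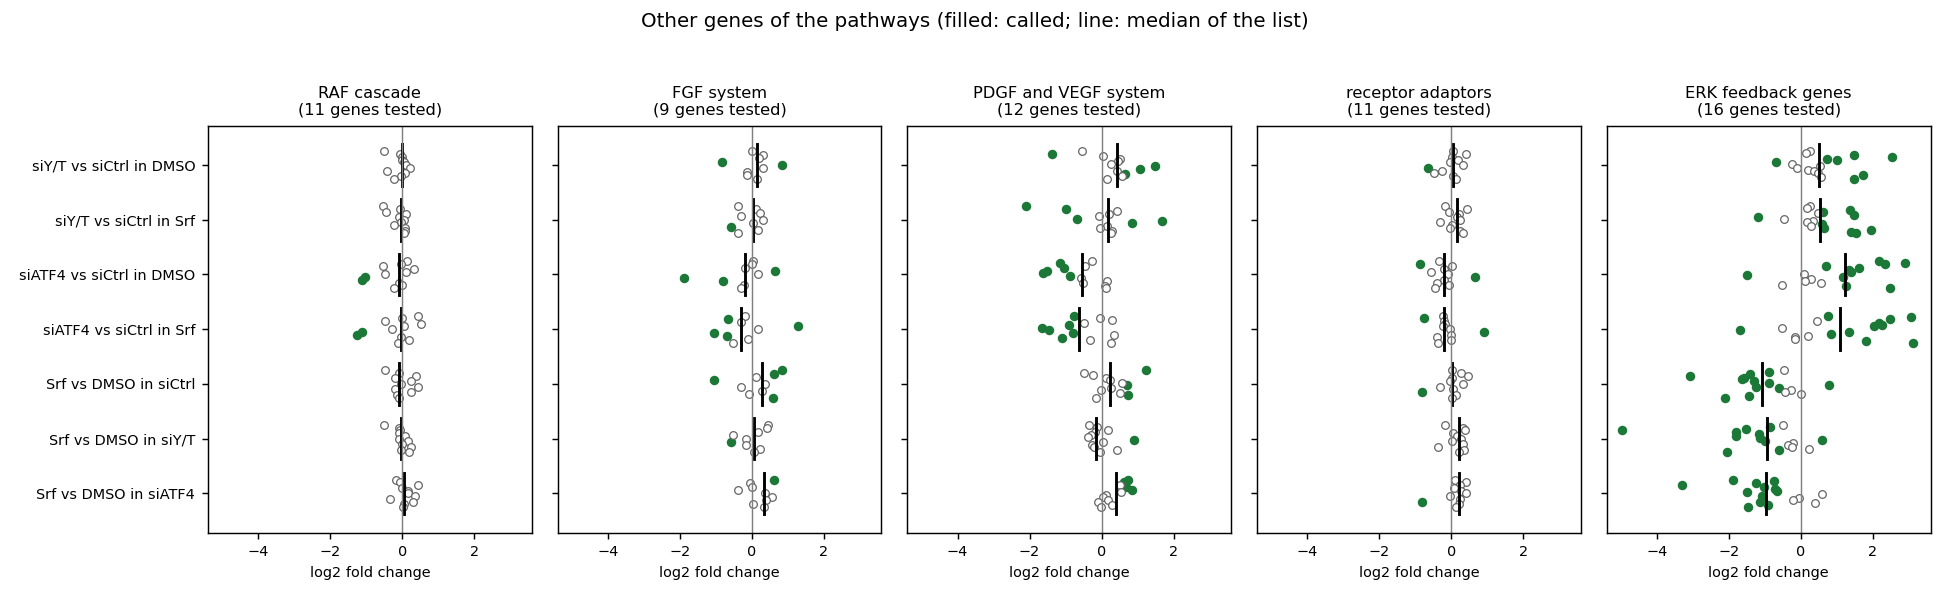
Log2 fold change of the tested genes of 5 written lists (points, filled where called) in the 7 comparisons, with the median of each list as a line. The median of the ERK feedback genes lay to the left with Srf in all 3 transfections and to the right with siATF4, while the medians of the RAF cascade and adaptor lists stayed within 0.23 of 0.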

How the data were processed

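RNA from HLE cells was measured in 12 libraries, 2 in each of 6 groups taken from the sample titles. The values deposited by the authors are CPM, reads per 1000000 reads on genes. Single-end reads had been aligned by STAR against hg19, and QuasR had counted those with a unique hit in RefSeq mRNA exons. The labels name a stranded poly(A) kit and the methods a total RNA kit. The strand setting of the counting is not given in the sources used here. Every library's steps gave whole reads (100% of values, within 0.02 read), so reads were recovered from CPM (41408348 to 53619732 per library). These totals limit precision by counting error only. No column was left without a sample.

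RefSeq (GRCh38.p14) named 26111 of the 26258 identifiers. Positions and exon lengths came from GENCODE lifted to GRCh37. The test covered the 13515 genes that reached 1 CPM in 2 or more libraries. It was limma 3.58.1 (R 4.3.3) with a variance trend, fitted once to log2(CPM + 0.5) of the 12 libraries. The pseudocount understates changes of low genes. The alternatives were pseudocounts of 0.1 and 1, other filters, TMM and quantile scaling, a replicate block, only the groups compared, adjusted p-values, edgeR 4.0.16 and DESeq2 1.42.0 on the recovered reads, and leaving out each library. The steps were tested on simulated data. Figures were drawn in matplotlib 3.10.9 from tables made in pandas 2.3.3 (Python 3.11.15). Fold changes of the 9 genes were printed where called or needed beside a call. Of each pathway list the members named were, per comparison, at most the 2 called with the largest change and a mean of at least 1 CPM. The comparisons share libraries (siCtrl, for example), so their values are not independent. FGF5, FGFR3, PDGFRA, KLB and the receptors named as low were named for their place in the pathway, and HRAS and the markers CD68, KRT18 and CDH1 after their values were seen. The 9 genes and the lists were chosen with earlier results of these data known. The results of 1 gene of the cascade are not reported here.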

Additional observations from a re-analysis of the deposited data

Results flagged for a closer look

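By the test of the difference itself (limma, Benjamini-Hochberg adjusted), the effect of siY/T differed between Srf and DMSO for 22% of all genes. That of siATF4 differed for 41.1%. Among the 9 genes, the effect of an siRNA differed by this test for 9 pairs of a gene and an siRNA. With siY/T these were FGF2, with a difference of 0.51 on the log2 scale (standard error 0.08, adjusted p = 0.0014 from limma), PDGFA, with -0.67 (adjusted p = 0.0094 from limma), and FGFR1, with 0.19 (adjusted p = 0.038 from limma). With siATF4 they were FGF1, with 1.06 (adjusted p = 0.0018 from limma), PDGFRB, with 0.39 (0.0049), FGFR1, with 0.23 (0.0083), FGFR4, with -0.36 (0.0084), PDGFA, with 0.45 (0.033), and FGF2, with 0.22 (0.047). The differences of FGF1, FGFR4 and FGFR1 with siATF4 and of FGF2 and PDGFA with siY/T passed under all 22 alternatives. FGFR1 with siY/T was the least stable, as it no longer passed in 10 of the 12 fits without 1 library, all but those without siY/T DMSO replicate 2 or siY/T Srf replicate 1, with values between 0.14 and 0.24. FGF2 with siATF4 was lost in 7 of these 12 fits, without either library of siCtrl DMSO, siATF4 DMSO or siATF4 Srf or without siCtrl Srf replicate 2, with values between 0.18 and 0.27. PDGFA with siATF4 was lost in 5, without either siCtrl DMSO library, siATF4 DMSO replicate 2, siCtrl Srf replicate 1 or siATF4 Srf replicate 1, with values between 0.29 and 0.61. The difference of FGF1 with siY/T, -0.33, did not pass, but it did in DESeq2, with -0.51, and without siY/T Srf replicate 1, with -0.64.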

How the results depend on the processing

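With 2 libraries per group the spread is estimated from 6 pairs, and low levels limit PDGFA and FGF1 most. The number of the 9 genes called stayed within 1.5 times under every alternative but 1, siATF4 in DMSO without siATF4 DMSO replicate 2. When each library was left out in turn, that count ranged from 3 to 5, where 5 were called with all libraries. The fold changes of called genes kept their direction under every alternative, with the call kept 731 times and lost 39 times, for FGF1 and PDGFA with siATF4 in DMSO, PDGFC with siY/T in DMSO and 4 of the differences between effects, among them that of PDGFRB with siATF4 after quantile normalization (0.24). FGF1 with siATF4 in DMSO was 0.57 with a pseudocount of 1 and 0.54 after quantile normalization, and PDGFC with siY/T in DMSO was 0.53 with edgeR and 0.52 with DESeq2.

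Values close to 0 that were not called changed sign. After quantile normalization, BRAF turned to 0.063 and PDGFA to 0.013 with siATF4 in Srf, and BRAF to -0.0082 with Srf in siCtrl cells. With Srf in siATF4 cells, ARAF turned to -0.018 after TMM scaling, -0.017 with edgeR and -0.022 with DESeq2, and FGF1 to -0.026, -0.028 and -0.032 under the same settings and to -0.0081 after quantile normalization. When each library was left out in turn, the values spanned 0 for PDGFA with siY/T in DMSO (-0.093 to 0.017), BRAF with siATF4 in Srf (-0.11 to 0.011) and PDGFA with Srf in siCtrl cells (-0.13 to 0.014). They also did so with Srf in siATF4 cells for ARAF (-0.014 to 0.036), FGF1 (-0.039 to 0.043) and PDGFC (-0.015 to 0.12), and for the differences between effects of BRAF with siY/T (-0.046 to 0.17) and PDGFC with siATF4 (-0.083 to 0.049). The cause was not tested.

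The replicate numbers shared by the groups paired the libraries weakly at most, as the deviations from the group means correlated between -0.080 and 0.19 over the 7 comparisons. The highest values were 0.19 for siY/T against siCtrl in DMSO and 0.16 for siATF4 against siCtrl in Srf. With the replicate number as a block, the difference of FGF2 with siATF4, 0.22, had an adjusted p of 0.060 from limma, and no other call of the 9 genes changed. Over all genes, siY/T in DMSO lowered 488 and raised 1485, against 739 and 1499 with edgeR on the recovered reads, 771 and 1385 with DESeq2 and 789 and 1044 after quantile normalization. The share of calls that were falls was 24.7% there, 33.0% with edgeR, 35.8% with DESeq2 and 43.0% after quantile normalization, which also moved it from 29.5% to 47.7% with Srf in siCtrl cells, from 41.5% to 53.1% in siY/T cells, from 34.2% to 45.3% in siATF4 cells and from 64.6% to 51.5% with siATF4 in Srf. Of all genes, the effect of siY/T was lower in Srf for 1923 and higher for 1055, against 1135 and 446 without siCtrl DMSO replicate 2, 1148 and 475 without siCtrl Srf replicate 2, 1335 and 614 without siY/T Srf replicate 1, and 2405 and 2170 without siY/T DMSO replicate 2.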
